A study of Mus musculus with 19 samples.

Results

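Cajal-Retzius neurons of the embryonic mouse cortex were followed through 10 marker genes, *Reln*, *Trp73*, *Calb2*, *Lhx1*, *Lhx5*, *Ebf2*, *Ebf3*, *Cacna2d2*, *Nhlh2* and *Ndnf*, of 51912 genes in the count tables. The genes were chosen by symbol, as genes known to be expressed by these neurons, and each was found under 1 Ensembl identifier. RNA of E13.5 cortex was sequenced as 1 library per embryo in 3 genotypes of mixed C57BL/6 and 129 background. *Ino80*, the gene deleted in both mutants, encodes the ATPase of a nucleosome-remodeling complex. The 7 ctrl embryos carry no further genotype in the labels than control. The 5 cKO-E embryos were *Emx1*-Cre *Ino80* conditional mutants (*Emx1* Cre/+;*Ino80* fl/fl), and the 7 dKO-E embryos were also homozygous for a conditional *Trp53* allele, the gene of p53. *Emx1*-Cre acts in cortical neural progenitor cells (NPCs) and passes to the neurons they produce, so that Cajal-Retzius neurons born before Cre activity or outside its domain keep both genes.

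Cajal-Retzius neurons are among the first neurons of the cortex and lie in the marginal zone beneath the pial surface. They are born at the borders of the cortex, chiefly the cortical hem, the septum and the pallial-subpallial boundary, and migrate over the surface. They secrete Reelin, which binds the receptors VLDLR and LRP8 on migrating neurons and on radial glia, leads to phosphorylation of the adaptor DAB1, and directs the inside-out order of cortical layers.

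The sequences before the transcription start are given for the 3 genes called in cKO-E against ctrl, *Reln*, *Ebf3* and *Trp73*. RefSeq promoters of GRCm38.p6, spanning 250 bases before and 50 bases from the start, were found for 6 of the 10 genes, with a pair of them for *Trp73*. *Calb2*, *Lhx5*, *Ebf2* and *Ndnf* were not matched. The 4 stretches of 250 bases lie on the minus strand and are written 5′ to 3′ with matches to a searched motif in capitals. *Reln* is shown from chr5:22344706-22344955, *Ebf3* from chr7:137314446-137314695, and *Trp73* from chr4:154139876-154140125 (upstream) and chr4:154097174-154097423 (internal). The upstream *Trp73* promoter produces the full-length p73 proteins and the internal promoter the forms that lack the transactivation domain.
Reln: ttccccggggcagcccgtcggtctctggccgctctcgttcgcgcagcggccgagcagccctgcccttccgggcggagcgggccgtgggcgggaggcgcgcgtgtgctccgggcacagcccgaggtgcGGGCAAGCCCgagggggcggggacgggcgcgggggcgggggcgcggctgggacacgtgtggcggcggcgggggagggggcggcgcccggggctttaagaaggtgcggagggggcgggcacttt
Ebf3: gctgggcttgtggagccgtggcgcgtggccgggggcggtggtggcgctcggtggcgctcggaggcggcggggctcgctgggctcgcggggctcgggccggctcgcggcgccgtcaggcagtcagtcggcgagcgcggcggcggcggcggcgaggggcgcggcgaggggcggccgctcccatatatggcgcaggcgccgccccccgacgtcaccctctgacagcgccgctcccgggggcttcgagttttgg
Trp73 upstream: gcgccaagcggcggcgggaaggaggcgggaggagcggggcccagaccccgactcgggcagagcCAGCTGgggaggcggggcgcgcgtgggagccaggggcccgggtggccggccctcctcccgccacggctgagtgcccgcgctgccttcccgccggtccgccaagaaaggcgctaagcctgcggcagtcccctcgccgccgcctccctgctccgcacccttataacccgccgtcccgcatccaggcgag
Trp73 internal: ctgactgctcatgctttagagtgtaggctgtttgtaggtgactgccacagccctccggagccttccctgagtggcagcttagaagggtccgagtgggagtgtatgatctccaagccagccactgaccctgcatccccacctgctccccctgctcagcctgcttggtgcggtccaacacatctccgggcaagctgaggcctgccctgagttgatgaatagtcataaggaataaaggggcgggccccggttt

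Over the 300 bases, GC content was 80.7% for *Reln*, 77% for *Ebf3*, 77.7% for the upstream and 57.7% for the internal *Trp73* promoter, beside a median of 52.7% over 32851 mouse promoters. CpG dinucleotides numbered 47, 46, 39 and 6 in the same order. Both strands were searched for the p53 half-site, the E-box CAGCTG, the LIM homeodomain core TAATTA and the TATA box TATAAA, and the matches found did not overlap each other. The *Reln* promoter held 1 p53 half-site, GGGCAAGCCC, starting 123 bases before the start, and 8.36% of all promoters held at least 1. The upstream *Trp73* promoter held 1 CAGCTG, starting 187 bases before the start, a motif in 16.3% of all promoters. *Nhlh2* held the same E-box after its start. No match to TAATTA (5.29% of promoters) or TATAAA (13.6%) was found in the 7 promoters of these genes, which says only that these letters were not in these windows.

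Depth on genes lay between 820915 and 8095810 counts per library, with medians of 3152460 in ctrl, 2952788 in cKO-E and 2598028 in dKO-E, and the precision of the rarer markers is set by this depth. A count of 3 was worth between 0.369 and 3.71 CPM (counts scaled to a common library size with TMM factors). *Ino80* transcripts were at 121 CPM in ctrl (SD 8.62, 7 embryos), 166 CPM in cKO-E (SD 14.7, 5 embryos) and 186 CPM in dKO-E (SD 13.7, 7 embryos). A count over the whole gene does not check the deletion of a few exons. *Trp53* was at 43.7 ± 5.21, 39.2 ± 4.66 and 34.6 ± 4.92 CPM in the same order. The ctrl embryos came from 4 litters, the cKO-E embryos from 5 and the dKO-E embryos from 2, and no litter held both mutants. Sex was not balanced, with 4 females and 3 males in ctrl, 4 and 1 in cKO-E, and 2 and 5 in dKO-E. The main fits had no sex covariate. Sequencing batches 1 and 2 held all 3 genotypes, and batch 3 held 1 dKO-E library.

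One library stood apart in genes of the cortical hem, which were singled out after their values were seen. In cKO-E embryo E, *Gmnc*, a regulator in the hem and its Cajal-Retzius lineage, had 33 counts (11.1 CPM). The other 18 libraries had 0 to 5 counts, and dKO-E embryo G, a shallow library, was the highest of them at 4.32 CPM. *Wnt3a*, a Wnt ligand of the hem, had 14 counts (4.72 CPM) there and 0 to 2 elsewhere. *Lmx1a*, a transcription factor of the hem and roof plate, had 66 counts (22.3 CPM) in embryo E and 1 to 21 elsewhere (up to 6.92 CPM). Of the other genes of Cajal-Retzius origin, *Rspo2* was at 70.2 CPM (208 counts) in embryo E and reached 2.62 CPM in ctrl and 14.1 CPM in dKO-E. *Rspo1*, *Bmp6* and *Wnt2b* were also highest there, at 9.11, 8.43 and 6.41 CPM. *Mcidas* and *Wnt8b* were not highest in embryo E. *Mcidas* was at 2.36 CPM (7 counts) there and at 3.24 CPM (3 counts) in dKO-E embryo G. *Wnt8b* reached 10.6 CPM in cKO-E and 14.1 CPM in dKO-E. The results of the markers, and of the other genes that turn on this embryo, are therefore also given without it.

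All 10 markers had at least 1 count in all 19 libraries. Compared per kb of exons, *Reln* was the highest in each genotype, at 21.2 ± 1.95 CPM per kb (mean ± SD, n = 7) in ctrl, 32.6 ± 2.28 (n = 5) in cKO-E and 20.2 ± 2.47 (n = 7) in dKO-E. The next, *Ebf2*, was at 9.27 ± 2.38, 9.20 ± 1.97 and 7.90 ± 2.13 CPM per kb, and its embryos did not reach the level of *Reln* in any genotype. *Ebf3* followed at 4.27 ± 0.72 in ctrl, below every ctrl value of *Ebf2*, and at 7.85 ± 1.16 in cKO-E, where the embryos of both genes overlapped. From *Ebf3* downward, the ranges of neighbouring genes overlapped in each genotype. *Lhx1*, at 0.39 ± 0.20 CPM per kb, was the lowest in ctrl, and *Lhx5* and *Ndnf* stood beside it. *Reln* made up between 69.7% and 78.4% of the summed CPM of the 10 genes in a library.

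**Figure D1:**
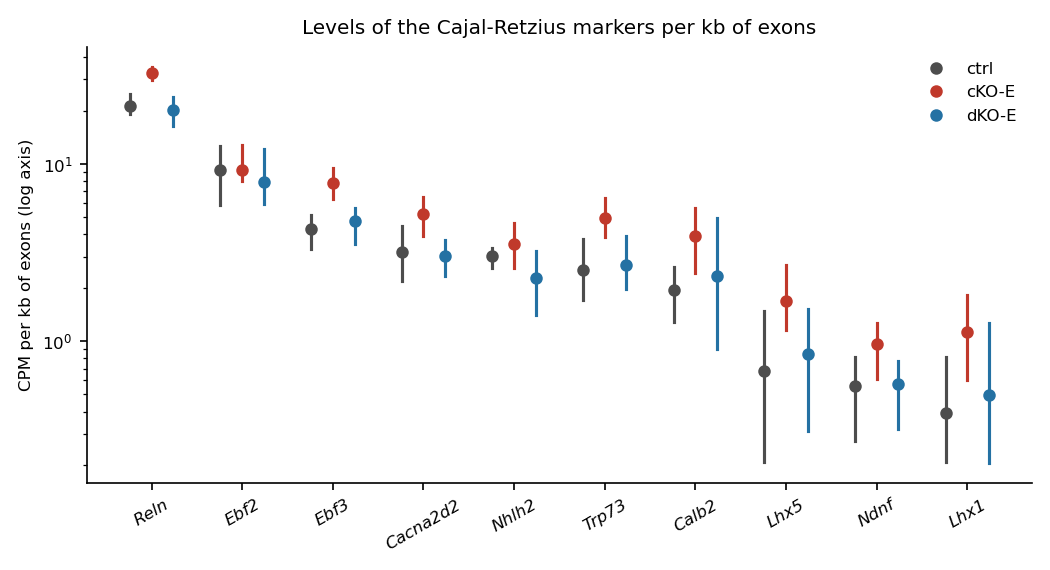
Level of each marker in CPM per kb of exons (vertical, log axis), ordered by the ctrl mean; points are genotype means and bars run from the lowest to the highest embryo (7 ctrl, 5 cKO-E, 7 dKO-E). *Reln* lies above every other marker in each genotype, and the bars of *Ebf3* and the lower markers overlap their neighbours.

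Of 8 Cajal-Retzius markers tested, 3 were called higher in cKO-E cortex than in ctrl, and in dKO-E their embryos overlapped the ctrl range. *Reln* rose 1.54-fold, *Ebf3* 1.88-fold and *Trp73* 1.94-fold in cKO-E, and these were the 3 called. With the test used here, *Cacna2d2*, *Calb2* and *Ndnf* passed only a looser threshold, and *Nhlh2* and *Ebf2* passed neither. For each embryo, the CPM of each gene was divided by its ctrl mean and the median over the 10 genes was taken. This ratio ran from 0.845 to 1.21 in ctrl, from 1.47 to 1.85 in cKO-E (to 1.78 without embryo E) and from 0.758 to 1.14 in dKO-E, so that the cKO-E embryos did not overlap either of the other genotypes. CPM gives a share of each library. In bulk tissue, a larger share of Cajal-Retzius neurons and more RNA per neuron cannot be told apart. Whether the absolute number of these neurons changed was not tested.

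**Figure D2:**
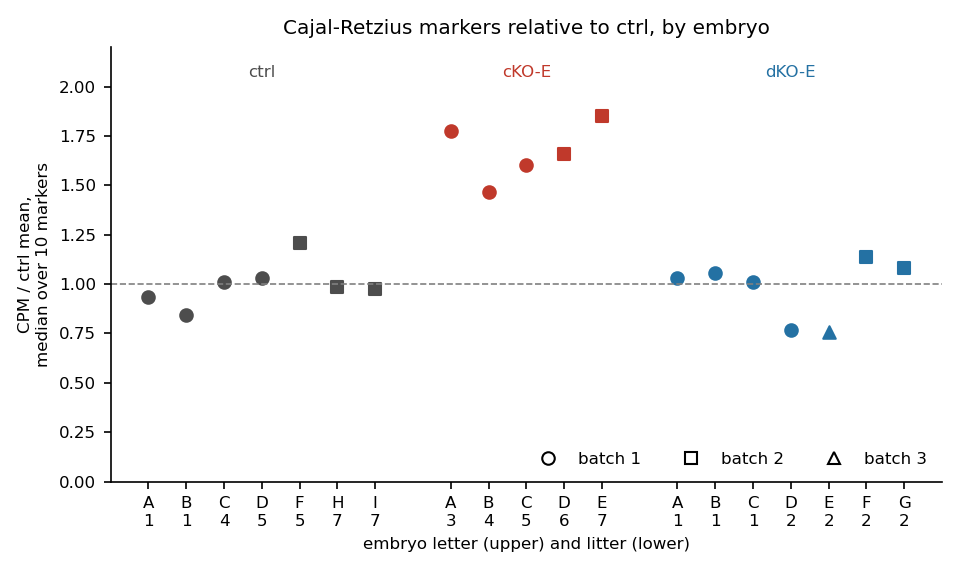
Median over the 10 markers of CPM divided by the ctrl mean (vertical) for each of 19 embryos, with embryo letter and litter on the horizontal axis and sequencing batch as the symbol. The 5 cKO-E embryos lie between 1.47 and 1.85, and the ctrl and dKO-E embryos lie on both sides of 1.

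*Reln* (ENSMUSG00000042453.14, chr5:21884454-22344702, minus strand, GRCm38) encodes the secreted glycoprotein Reelin. In ctrl the lowest, median and highest embryos were at 455, 487 and 592 CPM. The cKO-E embryos A to E were at 788, 732, 838, 804 and 705 CPM. All 5 lay above every ctrl embryo. The dKO-E embryos ran from 387 through a median of 480.2 to 565 CPM, all below the lowest cKO-E embryo and overlapping ctrl. *Reln* varied least among cKO-E embryos, with a coefficient of variation of 7.00%, beside 9.20% in ctrl and 12.2% in dKO-E.

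*Trp73* (ENSMUSG00000029026.16, chr4:154056253-154140208) encodes p73, a transcription factor of the p53 family that is required for the survival of hem-derived Cajal-Retzius neurons. Its ctrl embryos ran from 9.45 through 14.2 to 20.9 CPM. The cKO-E embryos A to E were at 23.4, 21.4, 24.1, 33.4 and 35.4 CPM, all above ctrl, with the batch 2 embryos D and E the highest. The dKO-E embryos ran from 10.9 through 13.7 to 21.7 CPM, and the highest of them passed the lowest cKO-E embryo.

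*Ebf3* (ENSMUSG00000010476.14, chr7:137193673-137314445) and *Ebf2* (ENSMUSG00000022053.13, chr14:67233292-67430918) encode helix-loop-helix transcription factors of the early B-cell factor family. *Ebf3* ran from 30.6 through 38.8 to 47.8 CPM in ctrl. In cKO-E embryos A to E it was at 74.2, 58.3, 74.0, 67.9 and 87.7 CPM, above every ctrl and every dKO-E embryo. In dKO-E it ran from 32.5 through 46.0 to 51.9 CPM. *Ebf2* gave no such separation, with 40.7, 69.0 and 86.9 CPM as the lowest, median and highest in ctrl. Its cKO-E embryos A to D lay between 55.7 and 59.3 CPM and embryo E was at 88.1 CPM. The dKO-E embryos ran from 41.2 through 55.1 to 84.1 CPM, so all 3 genotypes overlapped. The ctrl embryos of batch 2 were at 71.7 to 86.9 CPM and those of batch 1 at 40.7 to 69.0.

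*Lhx1* (ENSMUSG00000018698.15, chr11:84518284-84525535) and *Lhx5* (ENSMUSG00000029595.9, chr5:120431699-120441223) encode LIM homeodomain transcription factors, and *Lhx5* acts in the hem upstream of Cajal-Retzius fate. *Lhx1* ran from 0.85 through 1.55 to 3.32 CPM in ctrl. The cKO-E embryos A to E were at 4.29, 3.94, 4.74, 2.47 and 7.42 CPM, on 13, 14, 13, 2 and 22 counts. All but embryo D, the shallowest library, were above ctrl. The dKO-E embryos ran from 0.84 through 1.79 to 5.18 CPM. *Lhx5* ran from 0.56 through 1.62 to 3.98 CPM in ctrl and was at 7.25, 3.10, 5.11, 3.71 and 3.37 CPM in cKO-E embryos A to E. Its dKO-E embryos ran from 0.84 through 2.22 to 4.08 CPM, and all 3 genotypes overlapped.

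*Nhlh2* (ENSMUSG00000048540.8, chr3:102010076-102015492) encodes a neuronal basic helix-loop-helix factor. It ran from 13.95 through 17.4 to 18.2 CPM in ctrl, was at 18.5, 14.1, 25.2, 17.3 and 20.6 CPM in cKO-E embryos A to E, and ran from 7.57 through 12.9 to 17.6 CPM in dKO-E. The cKO-E embryos overlapped both other genotypes, and 4 of the 7 dKO-E embryos lay below the lowest ctrl embryo.

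The remaining markers act outside the nucleus. *Calb2* (ENSMUSG00000003657.9, chr8:110137502-110168210) encodes the calcium-binding protein calretinin. It ran from 2.22 through 3.32 to 4.58 CPM in ctrl. The cKO-E embryos A to E were at 7.58, 4.23, 5.11, 9.88 and 7.42 CPM, and embryo B alone lay within the ctrl range. The dKO-E embryos ran from 1.57 through 3.81 to 8.65 CPM. *Cacna2d2* (ENSMUSG00000010066.15, chr9:107399612-107529343) encodes an auxiliary subunit of voltage-gated calcium channels. Its ctrl embryos ran from 17.3 through 25.6 to 35.3 CPM, and its cKO-E embryos A to E were at 38.9, 31.3, 38.7, 51.9 and 46.9 CPM. Embryo B alone overlapped ctrl, and all dKO-E embryos, from 18.4 through 24.5 to 29.7 CPM, lay below the cKO-E embryos. *Ndnf* (ENSMUSG00000049001.5, chr6:65671590-65712326) encodes a secreted neurotrophic factor. It ran from 2.78 through 5.68 to 8.23 CPM in ctrl and was at 12.9, 12.4, 6.20, 7.41 and 10.1 CPM in cKO-E embryos A to E. Embryos C and D overlapped ctrl. The dKO-E embryos ran from 3.23 through 6.12 to 7.80 CPM.

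**Figure D3:**
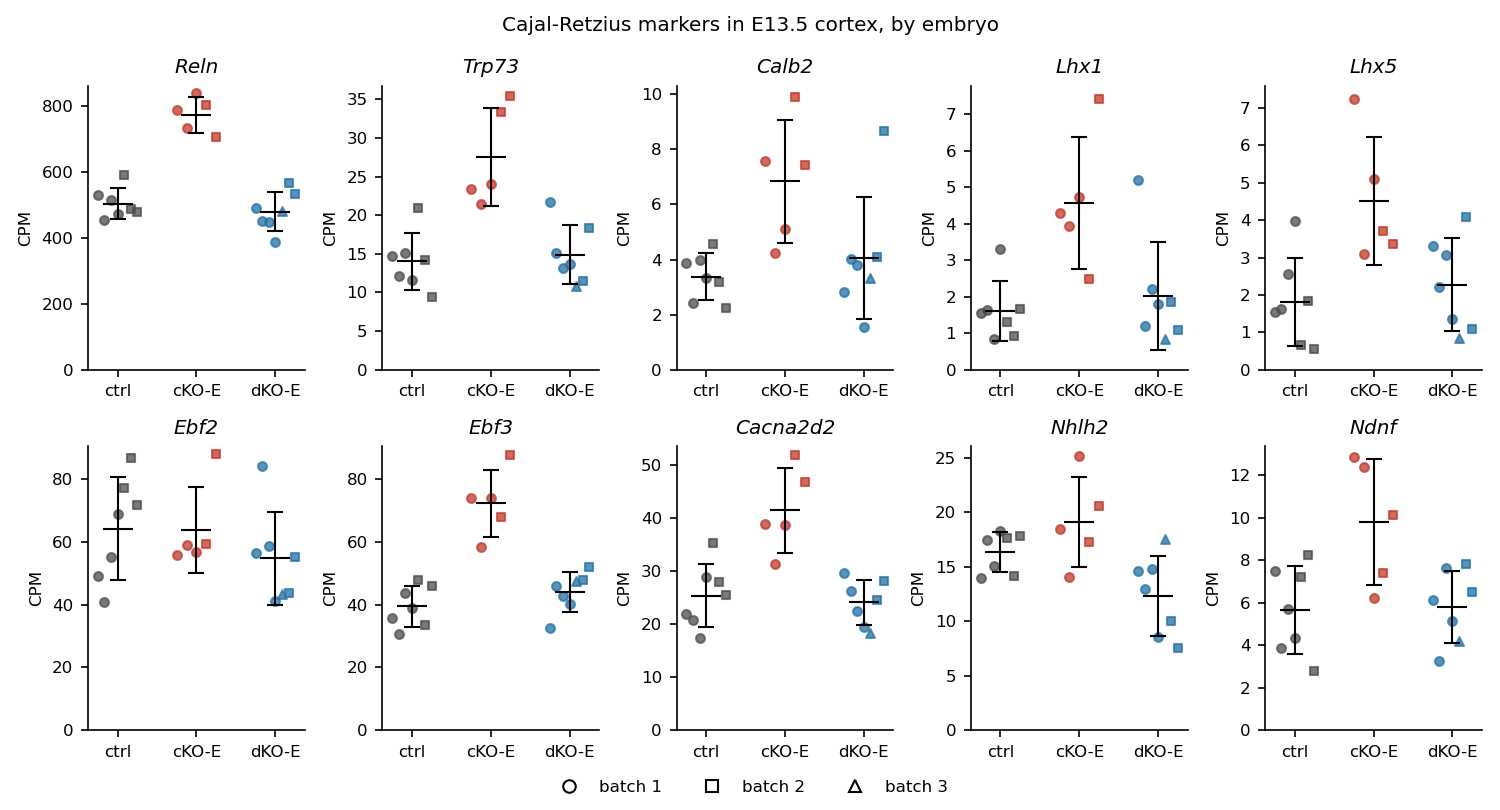
CPM of each of the 10 markers (vertical, from 0) in each embryo by genotype, with the mean and SD in black and the sequencing batch as the symbol. The cKO-E embryos of *Reln*, *Trp73* and *Ebf3* lie above all ctrl embryos, whereas those of *Ebf2* lie within or near the ctrl range.

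The first comparison asked how *Ino80* deletion from NPCs changed these genes. Of 8 markers with enough counts to be tested, 3 were called higher and 0 lower in cKO-E at a false discovery rate (FDR) of 0.001 by edgeR's quasi-likelihood test, and 1.06% of 11660 genes were called higher and 2.32% lower. The log2 fold change of *Reln* was 0.62 (SE 0.07, FDR 1.13e-05), that of *Ebf3* was 0.91 (SE 0.12, FDR 5.26e-05) and that of *Trp73* was 0.96 (SE 0.17, FDR 0.00083). These 3 were also the markers whose cKO-E embryos were all above ctrl, a pattern shown by 3.19% of genes tested. At an FDR of 0.05, 6 markers were higher, beside 7.31% of genes tested, with the addition of *Cacna2d2* (log2 fold change 0.72, SE 0.15, FDR 0.00383), *Calb2* (0.94, SE 0.25, FDR 0.0148) and *Ndnf* (0.87, SE 0.25, FDR 0.0259). *Nhlh2* (0.24, SE 0.14, FDR 0.277) and *Ebf2* (0.05, SE 0.17, FDR 0.901) did not pass. The median log2 fold change of the 8 was 0.79, and it was 0.02 over all genes tested. *Lhx1* and *Lhx5* had too few counts for this fit. Without the count filter their log2 fold changes were 1.54 (SE 0.37, FDR 0.00421) and 1.21 (SE 0.38, FDR 0.0376).

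The increase of *Reln*, *Ebf3*, *Trp73* and *Cacna2d2* was seen in both sequencing batches. In batch 1 alone (4 ctrl, 3 cKO-E) the log2 fold changes were 0.66, 0.88, 0.76 and 0.70, and in batch 2 alone (3 ctrl, 2 cKO-E) they were 0.54, 0.96, 1.25 and 0.73. All 8 values passed an FDR of 0.05, and in batch 2 none passed 0.001, the lowest being 0.00682 for *Ebf3*. With litter as a block, *Reln* kept its call (0.58, SE 0.08, FDR 0.000617), whereas *Ebf3* (0.82, FDR 0.00145), *Trp73* (0.94, FDR 0.0111) and *Cacna2d2* (0.63, FDR 0.00669) passed 0.05 and *Calb2* (0.67, FDR 0.207) and *Ndnf* (0.75, FDR 0.153) did not. cKO-E embryo E was the highest in *Gmnc*, *Wnt3a* and *Lmx1a*. Without it, the log2 fold changes were 0.65 for *Reln* (FDR 2.05e-05), 0.83 for *Ebf3* (FDR 0.000209) and 0.82 for *Trp73* (FDR 0.0034). They were 0.64 for *Cacna2d2* (FDR 0.0139), 0.87 for *Calb2* (FDR 0.0412) and 0.87 for *Ndnf* (FDR 0.0432). *Trp73* passed 0.001 in 1 of the 12 fits that left out an embryo, the one without ctrl embryo F, and its FDR reached 0.0034. *Cacna2d2* passed 0.001 in 0 of these 12 fits. It did pass with edgeR's likelihood-ratio test, the test of the study (FDR 0.000159), and with DESeq2 (FDR 0.000551). It also passed without the count filter (FDR 0.000114) and with batch as a covariate (FDR 0.000223). *Calb2* lost 0.05 without cKO-E embryo A (FDR 0.0547), and *Ndnf* lost it without cKO-E embryo A or B (FDR up to 0.0927).

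The second comparison asked whether the change was present when *Trp53* was deleted together with *Ino80*. Against ctrl, 0 of 8 tested markers were called in dKO-E at an FDR of 0.001 or 0.05 by edgeR's quasi-likelihood test, nor by DESeq2, which gave no adjusted value for *Calb2* and *Ndnf*. Of 11381 genes, 2.58% were called in either direction at 0.001 and 15.5% at 0.05. The log2 fold changes were -0.08 for *Reln* (SE 0.08), 0.16 for *Ebf3* (SE 0.11), 0.07 for *Trp73* (SE 0.16), -0.05 for *Cacna2d2* (SE 0.14), 0.10 for *Calb2* (SE 0.27), 0.06 for *Ndnf* (SE 0.25) and -0.17 for *Ebf2* (SE 0.17). The 8 tested markers had a median of 0.00, beside 0.01 over all genes tested. *Lhx1* and *Lhx5* had too few counts for this fit. In dKO-E they were at 2.02 (SD 1.47) and 2.28 (SD 1.25) CPM, beside 1.60 (SD 0.82) and 1.82 (SD 1.17) in ctrl. *Nhlh2* was the only marker with an unadjusted p below 0.05, as 16.5% of genes had in this direction (-0.40, SE 0.15, FDR 0.0801), and with sequencing batch as a covariate it passed an FDR of 0.05 (-0.47, SE 0.15, FDR 0.0433). *Ebf2* had no stable direction, with 0.18 (FDR 0.571) in batch 1, -0.73 (FDR 0.0172) in batch 2 and 0.57 (FDR 0.0492) with litter as a block.

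The third comparison set the double mutant against the single mutant. It uses the same cKO-E embryos as the first, so the 2 are not independent. *Lhx1* entered this fit through its higher counts in cKO-E and is left out of the counts over markers. Of the other 8 tested markers, all 8 had a log2 fold change below 0, whereas 54.1% of genes were above 0, and 6 were lower at an FDR of 0.05, the threshold used here, beside 9.42% of 11746 genes. Their median was -0.75, and it was 0.02 over all genes tested. *Reln* fell by 0.70 on the log2 scale (SE 0.08, FDR 9.07e-06), *Ebf3* by 0.74 (SE 0.11, FDR 0.000103) and *Cacna2d2* by 0.76 (SE 0.13, FDR 0.000669), and these 3 also passed 0.001, beside 2.75% of genes. Their dKO-E embryos were all below their cKO-E embryos, as for 4.64% of genes tested. *Trp73* (-0.88, SE 0.17, FDR 0.00138), *Lhx1* (-1.23, SE 0.34, FDR 0.0187), *Nhlh2* (-0.63, SE 0.19, FDR 0.0268) and *Ndnf* (-0.80, SE 0.24, FDR 0.0301) were lower with overlapping embryos. *Calb2* (-0.82, SE 0.30, FDR 0.0702) and *Ebf2* (-0.20, SE 0.16, FDR 0.477) did not pass, and *Lhx5* was at -0.85 (SE 0.35, FDR 0.128) without the count filter.

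**Figure D4:**
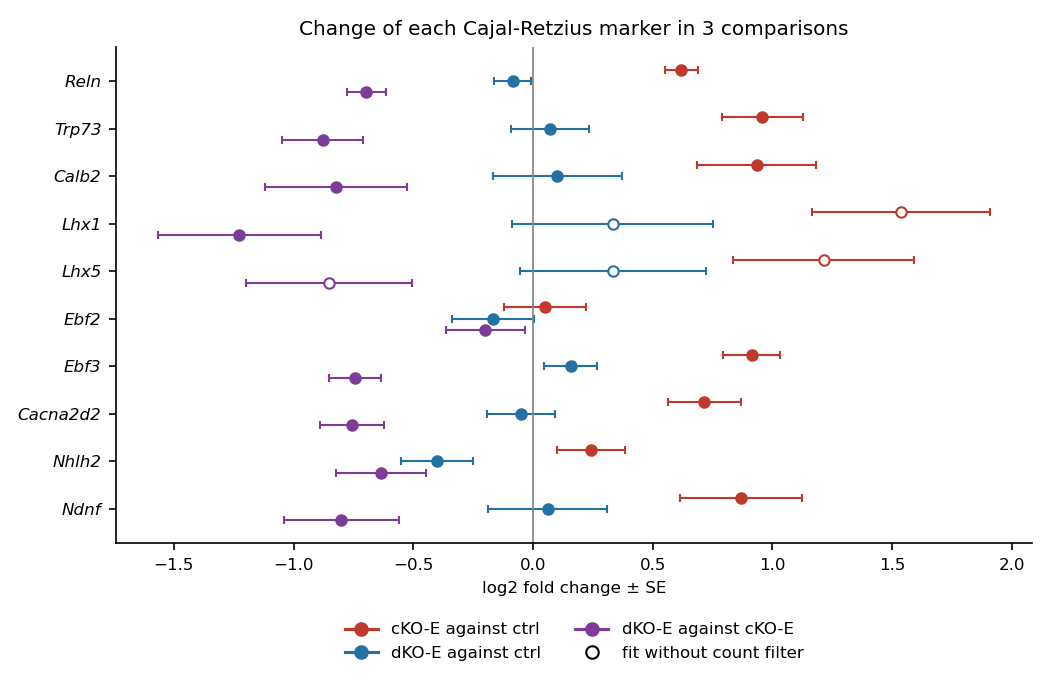
Log2 fold change with its SE (horizontal) of each marker in cKO-E against ctrl, dKO-E against ctrl and dKO-E against cKO-E; open points are from the fit without a count filter. The red points lie right of 0, with *Ebf2* the nearest to it at 0.05. The filled blue points lie near 0 except for *Nhlh2* at -0.40, and the purple points lie left of 0.

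Genotype and litter cannot be told apart in the third comparison, since no litter held both mutants. In batch 1 alone the log2 fold changes were -0.82 for *Reln* (FDR 0.000462), -0.74 for *Ebf3* (FDR 0.00426), -0.59 for *Cacna2d2* (FDR 0.0326) and -0.59 for *Trp73* (FDR 0.0529). In batch 2 alone they were -0.46, -0.73, -0.93 and -1.36, with FDR of 0.0146, 0.018, 0.0182 and 0.00598. Without cKO-E embryo E, *Reln* (-0.73), *Ebf3* (-0.66), *Cacna2d2* (-0.68), *Trp73* (-0.74) and *Ndnf* (-0.80, FDR 0.0469) stayed below 0.05, and *Lhx1* (-0.99, FDR 0.0747) and *Nhlh2* (-0.60, FDR 0.0543) did not. *Nhlh2* also lost its call without cKO-E embryo C or dKO-E embryo D (FDR up to 0.116). *Ndnf* lost it without cKO-E embryo A or B or dKO-E embryo B or D (FDR up to 0.107), and *Calb2* gained it without dKO-E embryo G (-0.94, FDR 0.0309).

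Of 11 other genes that Cajal-Retzius neurons express, and share with other cells, 10 were tested, and 1 was called higher and 0 lower in cKO-E against ctrl, beside 1.06% and 2.32% of genes tested. At an FDR of 0.05 2 were higher and 2 lower, beside 7.31% and 9.88% of genes tested. *Ebf1*, a further early B-cell factor, stood at 62.3 CPM in ctrl (SD 9.37), 126 CPM in cKO-E (SD 17.7) and 72.6 CPM in dKO-E (SD 21.9), with log2 fold changes of 1.04 for cKO-E against ctrl (SE 0.10, FDR 3.86e-06) and -0.76 for dKO-E against cKO-E (SE 0.16, FDR 0.00354). Without cKO-E embryo E these were 0.98 (FDR 1.92e-05) and -0.70 (FDR 0.00978). *Cxcr4*, a chemokine receptor of migrating neurons, was at 7.08 CPM in ctrl and 11.7 in cKO-E without overlap (0.73, SE 0.16, FDR 0.00441), whereas *Emx2* (-0.62, SE 0.15, FDR 0.00862) and *Eomes* (-0.32, SE 0.09, FDR 0.0165), transcription factors of cortical progenitors, were lower at 0.05. *Tbr1*, a transcription factor of early-born glutamatergic neurons, was at 184 ± 42.7, 214 ± 25.2 and 152 ± 19.6 CPM in ctrl, cKO-E and dKO-E, and was lower in the double than in the single mutant (-0.48, SE 0.09, FDR 0.00131). *Ebf1* and *Tbr1* were the 2 genes of 10 called lower in dKO-E against cKO-E, beside 9.42% of genes tested, and 0 were higher. The median log2 fold change of this list was 0.12 in cKO-E against ctrl and -0.40 in dKO-E against cKO-E, beside 0.02 over all genes tested in each.

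The 24 genes of the origin and specification of Cajal-Retzius neurons, mostly signals and transcription factors of the hem and of its boundary, were largely too rare to be tested, and 8 were. In cKO-E against ctrl 4 of the 8 were above 0, with a median of 0.14. Of them 0 were called higher and 1 lower, beside 1.06% and 2.32% of genes tested. At 0.05 *Rspo3* and *Lmx1a* were higher, and *Lhx2* and *Pax6* (-0.35, SE 0.10, FDR 0.0211) lower, beside 7.31% and 9.88%. *Lhx2*, which marks cortex and opposes hem fate, fell from 296 ± 31.9 CPM in ctrl to 187 ± 24.4 in cKO-E (-0.66, SE 0.09, FDR 7.51e-05) and was at 258 ± 63.2 in dKO-E, above cKO-E (0.48, SE 0.13, FDR 0.0173). Without cKO-E embryo E these were -0.72 (FDR 6.34e-05) and 0.54 (FDR 0.0122). *Rspo3*, a secreted enhancer of Wnt signalling made in the hem, was at 38.9 ± 8.69, 67.7 ± 17.6 and 31.9 ± 7.96 CPM, and passed 0.05 in cKO-E against ctrl (0.78, SE 0.16, FDR 0.00337) and in dKO-E against cKO-E (-1.16, SE 0.17, FDR 9.91e-05). Without embryo E these were 0.65 (FDR 0.0126) and -1.03 (FDR 0.000313). *Lmx1a* fell in the double against the single mutant (-2.46, SE 0.55, FDR 0.00438), and cKO-E embryo E held the highest level, without which it was at -1.52 (FDR 0.0238). Against ctrl it passed 0.05 in cKO-E with that embryo (2.15, FDR 0.0135) and not without it (1.22, SE 0.47, FDR 0.0885). The other 4 cKO-E embryos ran from 1.82 to 6.92 CPM, and the ctrl embryos from 0.46 to 5.23. *Lmx1a* had too few counts to be tested in dKO-E against ctrl and entered the other 2 comparisons through its higher counts in cKO-E.

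Of 29 genes of the Reelin pathway, 26 were tested, and their median was 0.06 on the log2 scale in cKO-E against ctrl, with 0 called higher and 1 lower, beside 1.06% and 2.32% of genes tested. The gene called was *Cul5*, a subunit of the ubiquitin ligase that removes phosphorylated DAB1 (147 ± 6.98 CPM in ctrl, 114 ± 7.31 in cKO-E, -0.36, SE 0.06, FDR 0.000434). At 0.05 2 were higher, the microtubule-binding *Mapt* (0.69, SE 0.17, FDR 0.0089) and the CDK5 activator *Cdk5r1* (0.43, SE 0.12, FDR 0.0217), and 2 were lower, *Cul5* and the adaptor *Crkl* (-0.30, SE 0.07, FDR 0.0102), beside 7.31% and 9.88%. In dKO-E against ctrl *Dab1* was called lower (1186 ± 78.4 and 932 ± 52.2 CPM, -0.36, SE 0.05, FDR 0.000181). In dKO-E against cKO-E 6 of the 26 genes were lower and 0 higher, where 9.42% of all genes were lower, namely *Mapt* (-0.92), *Adamts3*, a protease that cleaves Reelin (-0.62), *Pik3r1* (-0.54), *Cdk5r1* (-0.52), *Vldlr* (-0.46) and *Dab1* (-0.41). *Vldlr* did not pass without cKO-E embryo E (-0.43, FDR 0.0729). The receptor *Vldlr* was at 26.8 ± 6.85, 35.1 ± 4.57 and 24.4 ± 6.34 CPM in ctrl, cKO-E and dKO-E. The receptor *Lrp8*, named for its role after its values were seen, was at 310.1 ± 38.1, 298 ± 30.5 and 278 ± 32.2 CPM and passed no threshold.

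**Figure D5:**
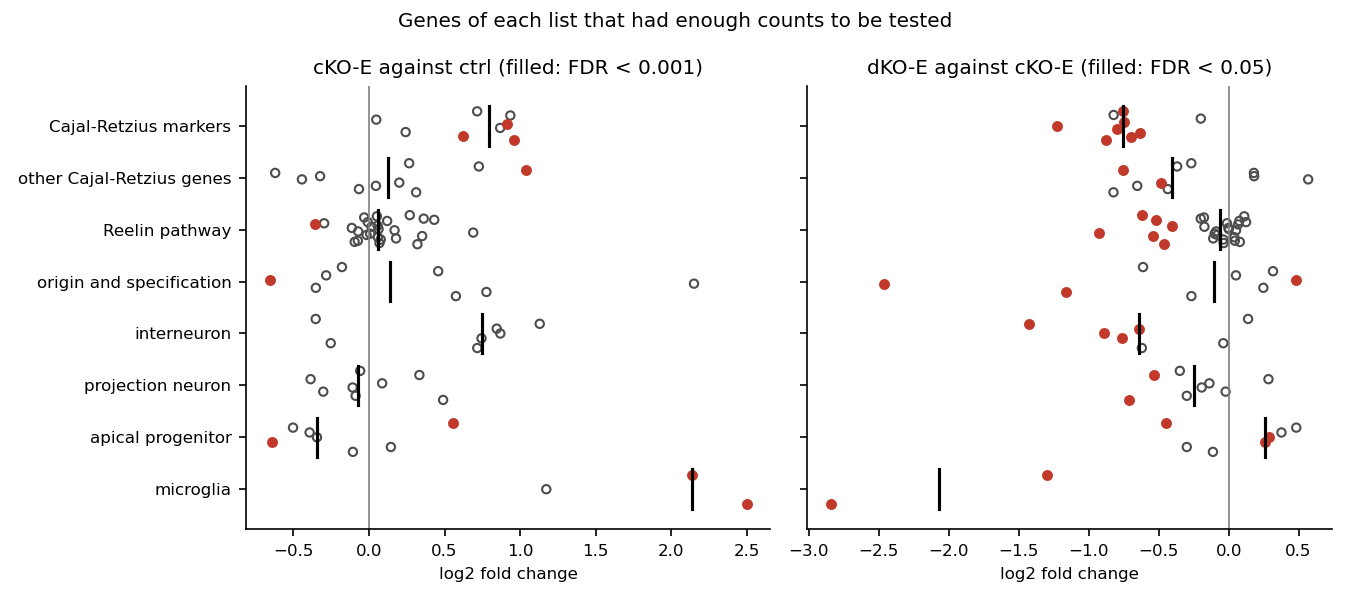
Log2 fold change (horizontal) of each tested gene of 8 lists in cKO-E against ctrl and in dKO-E against cKO-E; filled points passed the FDR above each panel and black bars are list medians. The Cajal-Retzius markers have medians of 0.79 and -0.76 (the latter with *Lhx1*), and the Reelin pathway lies near 0 with medians of 0.06 and -0.06.

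Genes of other cell types that share these markers, or that differ in amount between dissections, were set beside the result. Reelin and calretinin are also made by interneurons. The summed level of 14 interneuron genes ran from 78.6 to 154 CPM in ctrl, from 132 to 189 in cKO-E and from 95.1 to 133 in dKO-E, with *Nkx2-1* at 0 in cKO-E. The 7 tested had a median log2 fold change of 0.74 in cKO-E against ctrl, beside 0.79 for the 8 markers tested. In dKO-E against cKO-E their median was -0.64, beside -0.75 for the 8 markers without *Lhx1*. Against ctrl, 0 of the 7 passed 0.001 in cKO-E, beside 1.06% of genes tested higher. At 0.05 1 was higher (*Dlx1*, 1.13, FDR 0.0263), beside 7.31%, and *Gad1* (0.85, FDR 0.0539) and *Gad2* (0.87, FDR 0.0544) did not pass. Without cKO-E embryo E all 3 passed 0.05, with FDR of 0.0319, 0.0468 and 0.0382 in the same order. The median of the 7 was then 0.90. In dKO-E against cKO-E *Dlx1* (-1.43), *Gad2* (-0.89), *Lhx6* (-0.76) and *Gad1* (-0.64) were lower at 0.05, 4 of the 7 tested, beside 9.42% of genes tested. *Dlx1* had too few counts to be tested in dKO-E against ctrl and entered the other 2 comparisons through its higher counts in cKO-E. *Lhx1* and *Lhx5* are also expressed in the diencephalon. The 8 diencephalic genes summed to 132 to 190.4 CPM in ctrl, 108 to 149 in cKO-E and 108 to 210.0 in dKO-E, and *Tcf7l2* was at -0.45 (FDR 0.00247) in cKO-E against ctrl and at 0.44 (FDR 0.0381) in dKO-E against cKO-E. The part of these cells in the marker levels was not tested.

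The 10 microglial genes summed to 5.94 to 16.9 CPM in ctrl, 28.7 to 39.5 in cKO-E and 5.02 to 9.88 in dKO-E. They too separated cKO-E from both other genotypes. Of 3 tested, *Mpeg1* (FDR 5.58e-05) and *Csf1r* (FDR 0.000278) were called higher in cKO-E than in ctrl, beside 1.06% of genes tested. Both had too few counts to be tested in dKO-E against ctrl and entered the fit through their higher counts in cKO-E. *Cx3cr1* was tested in all 3 comparisons. It was at 1.17 in cKO-E against ctrl (FDR 0.0135), -0.13 in dKO-E against ctrl (FDR 0.821) and -1.30 in dKO-E against cKO-E (FDR 0.0002). Without cKO-E embryo E *Csf1r* passed only 0.05 (FDR 0.0013). The 8 apical progenitor genes summed to 1041 to 1192, 898 to 1148 and 946 to 1076 CPM, and 7 were tested. Their median was -0.34 in cKO-E against ctrl, with 5 of 7 below 0, and 0.26 in dKO-E against cKO-E, beside 0.02 over all genes tested in each. *Fabp7* was higher in cKO-E (0.56, FDR 0.000182), *Prom1* was lower (-0.64, FDR 0.000278), and at 0.05 *Nes* (-0.34, FDR 0.00943) and *Hes1* (-0.50, FDR 0.017) were also lower. Thus 1 was called higher and 1 lower, beside 1.06% and 2.32% of genes tested. At 0.05 1 was higher and 3 lower, beside 7.31% and 9.88%. The 10 projection neuron genes summed to 3075 to 5668, 3518 to 4948 and 2567 to 3973 CPM. Of 8 tested, 0 were called against ctrl in either mutant, beside 1.06% of genes higher and 2.32% lower in cKO-E, and 2.58% in dKO-E. In cKO-E at 0.05 1 was higher, *Stmn2*, and 1 lower, *Fezf2* (-0.39, FDR 0.0444), beside 7.31% and 9.88%. In dKO-E at 0.05 *Sox5* (-0.40, FDR 0.0473) and *Bcl11b* (-0.42, FDR 0.037) were lower and 0 higher, beside 15.5% in either direction. There 0 of the 8 were above 0, with a median of -0.27. *Stmn2* and *Dcx* mark young neurons of any kind. *Stmn2* was at 98.9, 141 and 86.2 CPM in ctrl, cKO-E and dKO-E, with every cKO-E embryo above ctrl (0.49, SE 0.10, FDR 0.00237) and above dKO-E (-0.71 for dKO-E against cKO-E, FDR 7.26e-05). *Dcx* was at 0.33 in cKO-E against ctrl (FDR 0.0817) and lower in dKO-E against cKO-E (-0.54, FDR 0.00139). *Sox2*, *Tubb3*, *Neurod1*, *Gbx2* and *Cdk5r2*, 5 of the 155 genes on these lists, were listed at 0 counts in every library, so their 0 cannot be read as absence. The 9 meningeal genes, from cells that overlie the Cajal-Retzius neurons, summed to 6.81 to 90.3, 10.9 to 16.6 and 7.43 to 88.7 CPM, the 6 choroid plexus genes to 0 to 2.32, 0 to 2.55 and 0 to 8.65, the 6 endothelial genes to 38.9 to 74.6, 48.9 to 67.3 and 38.2 to 89.8, and the 9 erythroid genes to 47.4 to 130, 59.0 to 88.4 and 34.9 to 119. The cKO-E embryos lay within the ctrl range for meningeal, endothelial and erythroid genes. Whether the levels of these cells bear on the markers was not tested.

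Within genotypes, the 10 markers moved together only weakly from embryo to embryo. After genotype means were subtracted from log2 CPM, the 45 pairs of markers had a median Pearson r of 0.12 over 19 embryos, from -0.42 to 0.63, and 31 were above 0. The highest were *Calb2* with *Reln* (0.63), *Cacna2d2* with *Ebf2* (0.62) and *Cacna2d2* with *Trp73* (0.60). The points share depth and batch, and several of these genes rest on few counts. The genes most like the mean z score of the 10 markers were *Zic1* (r 0.78, Spearman 0.81), *Col25a1* (0.77, Spearman 0.74), *2010315B03Rik* (0.77, Spearman 0.77), *Spice1* (0.75, Spearman 0.71) and *Dct* (0.73, Spearman 0.59), and without the embryos farthest from the median r lay between 0.58 and 0.78. *Zic1*, a zinc-finger transcription factor also on the list of genes that Cajal-Retzius neurons express, was at 27.8 ± 11.7 CPM in ctrl, 27.4 ± 9.38 in cKO-E and 21.3 ± 18.3 in dKO-E and passed no threshold between genotypes.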

How the data were processed

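Click-seq libraries were made by the authors from RNA without ribosomal RNA. They trimmed reads (cutadapt 1.13), aligned them to mm10 (STAR 2.5.2a), deduplicated them by molecular identifier (UMI-tools 0.5.3) and counted them per gene (HTSeq 0.6.1p1). They deposited raw counts, and 23.3% to 31.8% of them named no gene and were left out. Whether counting used strand is not given in the sources used here. *Reln*, *Trp73*, *Lhx5*, *Ebf2*, *Ebf3* and *Cacna2d2* share between 69 and 424 exon bases with a gene on the opposite strand. Of 51912 identifiers, 51719 matched GENCODE M21. Sex labels matched in 19 of 19 libraries.

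Each pair of genotypes was fitted alone in edgeR 4.0.16 (R 4.3.3), without covariates, with TMM factors, filterByExpr (minimum count 10), the quasi-likelihood test and Benjamini-Hochberg adjustment over all genes tested. Calls used an FDR of 0.001 against ctrl, the rate of the study, and 0.05 between mutants. The study used edgeR's likelihood-ratio test, which was run here as an alternative. The SE is the log2 fold change divided by the square root of F. Alternatives used DESeq2 1.42.0, other filters, factors, covariates, blocks, batches and left-out embryos. Leaving out cKO-E embryo E for genes other than the markers was chosen after seeing the data. The test was tried on simulated counts. Embryos are the replicates, and the floor of 3 counts covers counting error only. Named genes are the 10 markers, *Ino80*, *Trp53*, called members of the lists, defining genes of other cells beside a result, and the 5 genes most like the markers. Not every gene under this rule is reported here. Members and lists were chosen with earlier results of these data known. ERCC standards were not used here.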

Additional observations from a re-analysis of the deposited data

Results flagged for a closer look

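Among 30 sets of embryos (10 markers in 3 genotypes), 5 held an embryo far from the others, at a threshold that chance passes in about 1 of 20 sets. *Calb2* in dKO-E embryo G was at 8.65 CPM, with the next embryo at 4.08, on 8 counts in a shallow library. *Lhx1* in ctrl embryo D was at 3.32 CPM, with the next at 1.67. *Lhx1* in dKO-E embryo A was at 5.18 CPM, with the next at 2.21. *Ebf2* in cKO-E embryo E, the embryo highest in *Gmnc*, *Wnt3a* and *Lmx1a*, was at 88.1 CPM, with the next at 59.3. *Ebf2* in dKO-E embryo B was at 84.1 CPM, with the next at 58.7.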

How the results depend on the processing

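The number of Cajal-Retzius markers called higher in cKO-E than in ctrl was 3. It was 6 at an FDR of 0.05, 1 with litter as a block and 0 in batch 2 alone. With 1 embryo left out, only *Reln* and *Ebf3* kept the call, except without ctrl embryo F, where *Trp73* kept it too. *Cacna2d2* joined the 3 with the likelihood-ratio test, with DESeq2, without the count filter and with batch as a covariate. Markers lower in the double than in the single mutant numbered 7 with *Lhx1*, which entered through its higher counts in cKO-E, and 6 without it. With *Lhx1* where it was tested, there were 4 where at least 10 counts were required in every library, 4 with embryo letter as a replicate block, 3 in batch 1 alone and 3 at an FDR of 0.001. The other 157 recomputed counts, over both directions of the 3 comparisons and all alternatives, stayed within 1.5 times, and most of them were 0. This limit takes in a fall from 3 to 2. Letters did not pair the embryos (correlations of same-lettered deviations from -0.363 to 0.145), whereas litters are shared by label. With litter as a block in dKO-E against ctrl, the median of the markers was 0.23. No paired analysis was possible for dKO-E against cKO-E by litter because no litter held both.

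Signs changed for *Ebf2* and, in dKO-E against ctrl, for markers whose log2 fold change lay between -0.08 and 0.10. In cKO-E against ctrl, *Ebf2* was at -0.033 with the litter block, -0.0014 in batch 2, and between -0.11 and 0.14 with each embryo left out. In dKO-E against ctrl, total counts in place of TMM factors gave 0.0089 for *Reln* and 0.042 for *Cacna2d2*, and the batch covariate gave 0.018 for *Cacna2d2*. The letter block gave -0.12 for *Calb2* and 0.021 for *Cacna2d2*, and the litter block 0.57 for *Ebf2* and 0.24 for *Cacna2d2*. Batch 1 alone gave -0.083 for *Calb2*, 0.18 for *Ebf2* and 0.10 for *Cacna2d2*, and batch 2 alone 0.082 for *Reln* and -0.093 for *Trp73*. Leaving out embryos gave -0.085 to 0.21 for *Ndnf*, -0.020 to 0.15 for *Trp73*, -0.13 to 0.021 for *Cacna2d2* and -0.0083 to 0.16 for *Calb2*. In dKO-E against cKO-E, *Ebf2* was at 0.0069 with sex as a covariate and 0.081 in batch 1. The cause was not tested. *Lhx1*, *Lhx5*, *Calb2* and *Ndnf* rest on at most 62 counts per library, which limits their precision.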
